A study of Mus musculus with 6 samples.

Results

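The 10 genes described here, Ecscr, Egfl7, Plvap, Ets1, Hhex, Eng, Cdh5, Nos3, Pecam1 and Mef2c, are known from vascular endothelium, the cell layer that lines blood vessels. They are 10 of the 15398 genes in the gene table, and 44 of the 49379 transcripts in the transcript table belong to them. They were chosen by name with their measured levels in view, so that expressed and nearly absent endothelial genes stand side by side, and their levels are therefore given as a description, with no test. RNA was sequenced from cells of the mouse line bEND.3, a line established from brain endothelium. A total of 3 libraries came from bEND.3 cells that stably expressed circSlc17a5, a circular RNA of the gene Slc17a5, and 3 came from bEND.3 cells carrying the empty vector as negative control. All 6 libraries are labelled as a stable cell line. The promoter of the vector, the number of clones and whether replicates were separate cultures are not stated in the labels. The p-values thus set the difference between groups against a spread between libraries that may be technical. The series title links circular Slc17a5 to the growth of new vessels in the eye, and the comparison asks which RNAs differ when it is expressed.

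Endothelial cells hold on to each other through VE-cadherin (Cdh5) and PECAM-1 (Pecam1), answer shear and growth factors with nitric oxide made by endothelial nitric oxide synthase (Nos3), and read ligands of the TGF-beta and BMP family with the co-receptor endoglin (Eng). Their gene programme is kept by transcription factors, among them ETS factors such as Ets1, the MADS-box factor Mef2c and the homeobox factor Hhex. Plvap, which builds the diaphragms of fenestrae and caveolae, is low in mature vessels of the brain and present in leaky ones.

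Library totals lay between 16848513 and 17146112 expected counts in circSlc17a5 cells and between 16989017 and 17600230 in control cells. At this depth 11722 genes could be tested. In a principal component analysis the circSlc17a5 libraries 1, 2 and 3 stood at 22.9, 13.9 and 11.96 on the first axis and control libraries 1, 2 and 3 at -3.76, -28.3 and -16.7, so control 1 stood apart from the other two controls on the side of circSlc17a5. Of the 12 genes listed as defining markers of endothelium, 10 were in the table and 0 reached a mean of 1 TPM (a relative transcript level scaled for gene length). Their summed level lay between 0.69 and 1.06 TPM in circSlc17a5 cells and between 0.49 and 0.82 TPM in control cells, and 2 of these markers, Pecam1 and Cdh5, are among the 10 genes chosen here. A wider list of endothelial genes outside the 10, with 36 in the table, also holds the defining markers other than Pecam1 and Cdh5. It summed to between 572 and 648 TPM in circSlc17a5 cells and between 555 and 613 TPM in control cells. Most of that was Tm4sf1 and Procr, and Flt1, a receptor for vascular endothelial growth factor, stood at 8.39 TPM. The label was met by some genes known from endothelium and not by the defining ones. Of 9 simple epithelium markers in the table, 3 keratin genes (Krt18, Krt8 and Krt19) reached 1 TPM and carried nearly all of a sum of 1597 to 1648 TPM in circSlc17a5 cells and 1547 to 1918 TPM in control cells. The others were low, with Epcam at 0.832 TPM, 21 counts of Cldn6 and 8 counts of Cdh1 over all libraries, and Cldn7 and Esrp1 were not listed. Of 12 primitive and parietal endoderm markers in the table, 9 reached 1 TPM, and the list summed to between 697 and 809 TPM in circSlc17a5 cells and between 633 and 698 TPM in control cells. Most of that sum was matrix genes that other cells also make (Sparc at 426, Col4a1 at 71.4, Lamb1 at 69.3, Col4a2 at 48.2 and Lamc1 at 43.8 TPM), while Gata6 stood at 8.78 and Foxa2 at 9.21 TPM, Amn and Pth1r had 2 and 9 counts, and Gata4, Hnf4a, Ttr and Lama1 were not listed. Markers of other cells summed to 357 to 406 TPM in circSlc17a5 cells and 275 to 322 TPM in control cells for leukocytes and megakaryocytes, most of it Cd68, and to 17.3 to 33.1 TPM in circSlc17a5 cells and 19.9 to 43.7 TPM in control cells for mural cells and fibroblasts. For neural cells the sums were 38.2 to 48.9 TPM in circSlc17a5 cells and 20.7 to 25.6 TPM in control cells, and for trophoblast 12.7 to 14.8 TPM in circSlc17a5 cells and 11.7 to 12.2 TPM in control cells. Across all 11722 tested genes edgeR called 22%. By the same test, calls among tested markers were 1 risen and 1 fallen of 4 epithelial, 2 risen of 10 endoderm, 0 of 3 leukocyte, 3 risen and 1 fallen of 8 mural and fibroblast, 2 risen of 4 neural, and 1 risen and 1 fallen of 5 trophoblast genes. With 1 library left out these counts ran from 0 to 2 for epithelial, 0 to 4 for endoderm, 2 to 7 for mural and fibroblast, 1 to 2 for neural and 1 to 3 for trophoblast genes, with the highest number without control 1 in each of these lists. Over all genes, 4699 of 11846 were called without control 1 and 462 to 1085 without any other library. The part of other cell types in the results below was not tested.

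By mean TPM over the 6 libraries the genes formed a steep series with Ecscr at 134.9, Hhex at 14.7, Egfl7 at 13.1, Plvap at 9.69, Ets1 at 8.11, Eng at 0.89, Mef2c at 0.415, Cdh5 at 0.382, Nos3 at 0.307 and Pecam1 at 0.165. The upper 5 lay above the median mean level of all genes, 5.46 TPM. Over the tested genes alone that median was 10.4 TPM, and Plvap and Ets1 lay below it. The lower 5 lay under 1 TPM, where 68.9% of all genes were at or above that line. Ecscr was separate from Hhex in every library, at 9.18 times its mean level, and Ets1 was separate from Eng, at 9.11 times its mean level. Inside the run of Hhex, Egfl7, Plvap and Ets1 each gene overlapped with the next, as in the run of Mef2c, Cdh5, Nos3 and Pecam1. This overlap is between ranges over the 6 libraries. Compared inside each library, Egfl7 lay above Plvap and Nos3 above Pecam1 in all 6. The other neighbours inside those 2 runs changed order between libraries. Genes further apart could be separate. Hhex (13.1 TPM or more) lay above Plvap (at most 11.9) and Ets1 (at most 10.5) in every library. Egfl7 (11.2 or more) lay above Ets1, and Mef2c (0.31 or more) above Pecam1 (at most 0.23). Ecscr alone made up 73.9% of the TPM summed over the 10 genes, and its level was 818 times that of Pecam1. In bulk RNA a low level in every cell and a high level in few cells cannot be told apart, nor can fewer cells of a type and less RNA per cell.

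**Figure D1:**
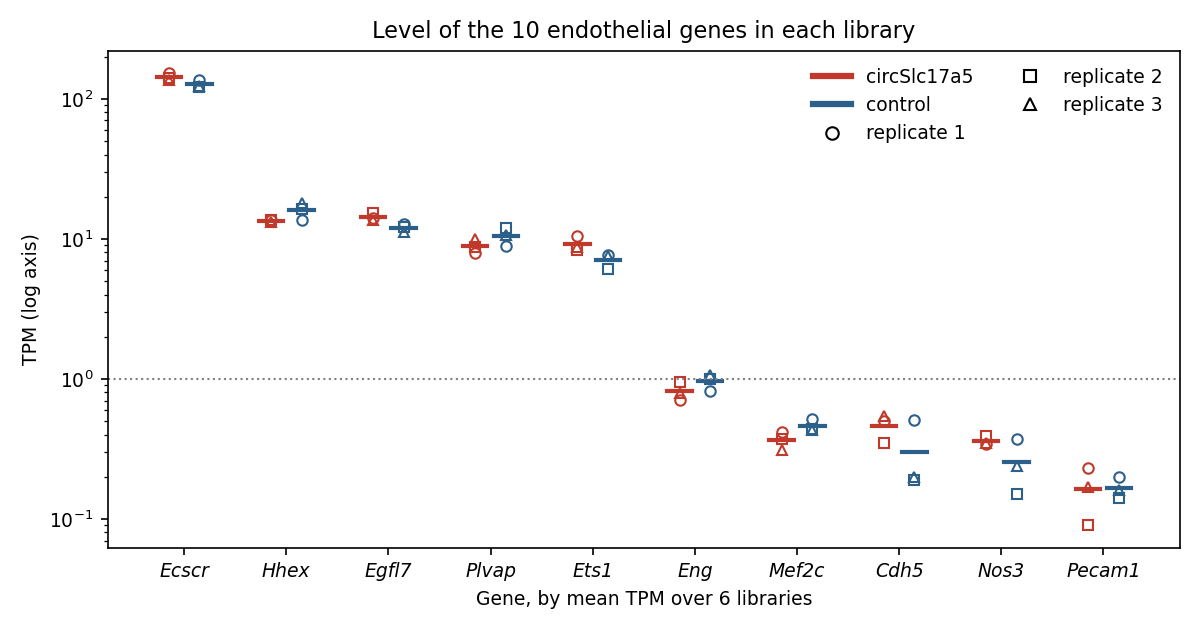
TPM of each of the 10 genes (log axis) in the 3 circSlc17a5 libraries (red, left) and the 3 control libraries (blue, right), with the group mean as a bar and a dotted line at 1 TPM. Ecscr sits above 100 TPM in all libraries, Hhex, Egfl7, Plvap and Ets1 sit above 5 TPM, and the other 5 genes sit near or under 1 TPM in both groups.

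The starts of Egfl7 and Hhex have upstream sequence in the RefSeq table of GRCm38.p6, and the stretches below show how differently these starts are built. The Egfl7 starts are shown because nearly all Egfl7 counts were assigned to a transcript of the most downstream one, and Hhex because it was the gene among the 10 that was called changed. Each sequence covers the 200 bases from 250 to 51 before the start, and capitals mark CG dinucleotides, searched as the letters CG, which read the same on both strands.
Egfl7 middle start, plus strand, chr2:26583615-26583814: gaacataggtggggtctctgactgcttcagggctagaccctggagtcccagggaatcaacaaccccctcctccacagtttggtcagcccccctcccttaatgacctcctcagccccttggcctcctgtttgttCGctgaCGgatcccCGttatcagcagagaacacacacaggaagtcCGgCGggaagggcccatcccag
Egfl7 downstream start, plus strand, chr2:26586386-26586585: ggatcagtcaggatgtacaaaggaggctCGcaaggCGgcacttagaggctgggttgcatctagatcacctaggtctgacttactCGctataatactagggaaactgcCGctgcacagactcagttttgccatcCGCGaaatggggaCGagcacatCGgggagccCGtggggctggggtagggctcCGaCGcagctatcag
Hhex, plus strand, chr19:37434591-37434790: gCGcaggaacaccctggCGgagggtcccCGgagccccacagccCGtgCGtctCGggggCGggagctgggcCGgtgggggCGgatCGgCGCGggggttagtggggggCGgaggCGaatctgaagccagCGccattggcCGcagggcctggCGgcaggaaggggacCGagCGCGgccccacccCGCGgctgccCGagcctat
The middle Egfl7 stretch held 5 CG and the downstream stretch 11, against a median of 4 over the 32851 windows of the same length in the table. At least as many CG were found in 47.4% of all windows for the middle stretch and in 26.7% for the downstream one. The Hhex stretch held 23 CG, a number that 6.48% of all windows reached. Stretches for the upstream Egfl7 start (1 CG), Eng (2 CG) and Mef2c (3 stretches with 1, 5 and 1 CG) were also matched, and Ecscr, Plvap, Ets1, Cdh5, Nos3 and Pecam1 were not.
The span of Egfl7 also holds a microRNA known from endothelium, whose mature sequence is given because its host gene is expressed here, with capitals marking the seed at bases 2 to 8.
mmu-miR-126a-3p, plus strand, chr2:26591402-26591423: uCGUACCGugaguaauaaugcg
The microRNA itself was not measured in these libraries.

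Across all tested genes, edgeR called 2584, or 22%, with 11.8% risen and 10.2% fallen in circSlc17a5 cells. Of the 10 genes, 9 passed the filter on low counts, and 1 of these, Hhex, was called, as fallen. In the fit with the replicate number as a block, 3 were called (Hhex, Plvap and Mef2c), where 4429 genes, or 37.8%, were called in all. The median log2 fold change was -0.02 over the 9 tested genes and -0.00 over all tested genes, and 4 of the 9 lay above 0 and 5 below. The groups did not overlap in normalised CPM (counts scaled to library size) for Ets1, which was higher in all circSlc17a5 libraries, and for Hhex and Mef2c, which were lower in all of them. Groups without overlap were found for 42.6% of all tested genes, so 3 of 9 is no more than the background. On the TPM scale the median gene stood 0.17 higher in circSlc17a5 cells (log2), and differences in TPM are to be read relative to that shift.

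**Figure D2:**
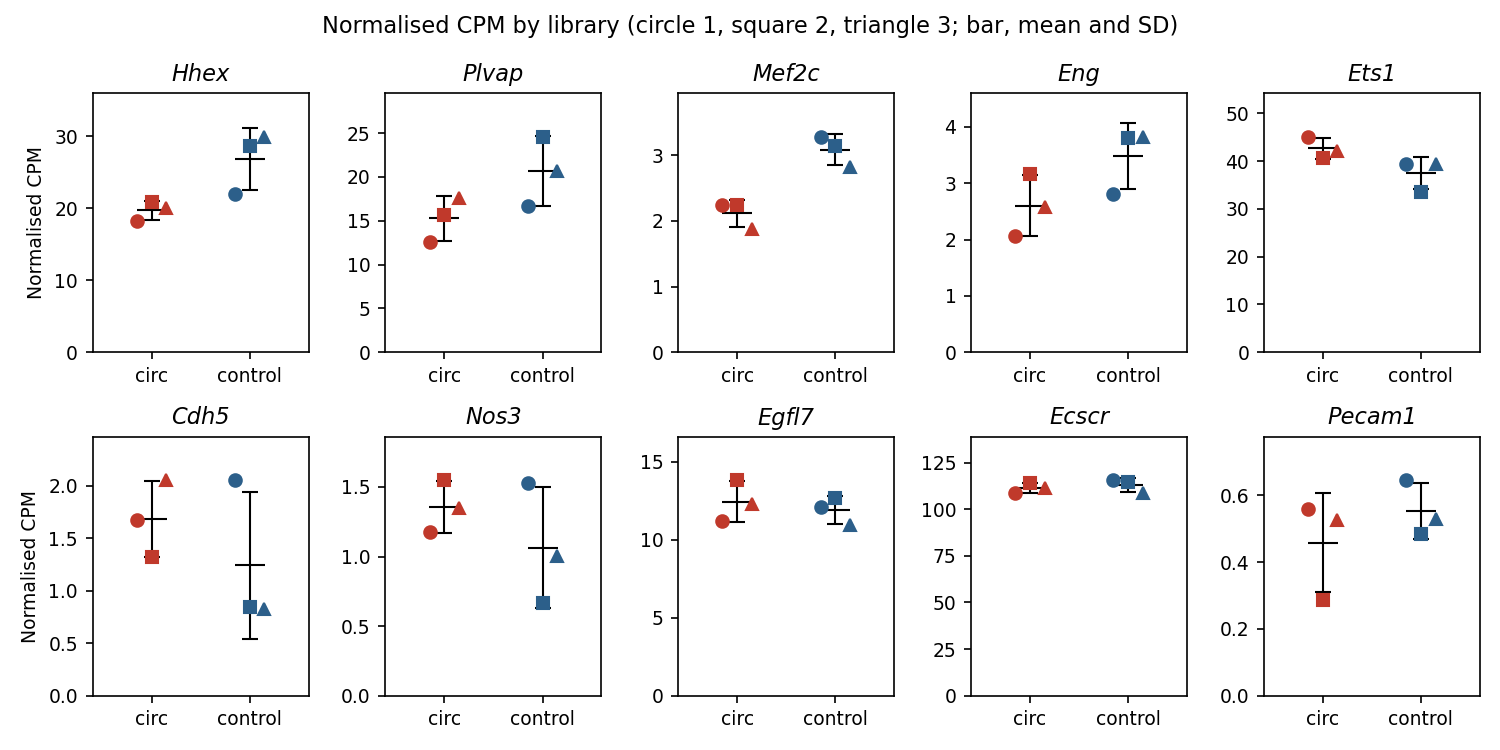
Normalised CPM of each gene in circSlc17a5 libraries (red, left) and control libraries (blue, right), with circles, squares and triangles for replicates 1, 2 and 3 and bars for mean and SD. For Hhex the 3 circSlc17a5 libraries sit between 18.3 and 20.8 and the 3 control libraries between 21.9 and 30.0, and for Ecscr the groups lie on top of each other.

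Ecscr encodes a membrane glycoprotein of endothelial cells that bears on their migration and survival, and it lies on chromosome 18 from 35713086 to 35722413 on the minus strand. It had 1945, 1990 and 1905 counts in circSlc17a5 cells and 1972, 1901 and 1845 in control cells, which is 152, 140.1 and 137 TPM in circSlc17a5 cells and 135, 122 and 124 TPM in control cells. Its level exceeded that of 95.6% of all genes. The normalised level was 111 ± 2.73 CPM in circSlc17a5 cells and 113 ± 3.86 CPM in control cells (SD, n = 3 each), and the groups overlapped. The log2 fold change was -0.02 with an SE of 0.0672 (edgeR, adjusted p = 0.842), the smallest change and the smallest error among the 9 tested genes. Its sign depends on the scale: on TPM the circSlc17a5 libraries were all higher and the log2 ratio was 0.17, the same as the shift of the median gene, and per total count the ratio was 1.04 (exact 95% interval 1.00 to 1.08, counting error only). With GC content and length as an offset it was 0.05. Of the 4 Ecscr transcripts listed, NM_001368651.1 took 97.1% of the expected counts, with 1878, 1922 and 1867 in circSlc17a5 cells and 1933, 1845 and 1779 in control cells.

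Egfl7 encodes a secreted protein with EGF domains that is laid down in the matrix of growing vessels, on chromosome 2 from 26581083 to 26592682. It had 201, 241 and 210 counts in circSlc17a5 cells and 206, 210 and 186 in control cells. These are 14.1, 15.2 and 13.6 TPM in circSlc17a5 cells and 12.7, 12.1 and 11.2 TPM in control cells. The TPM values did not overlap and the normalised CPM values did, at 12.5 ± 1.30 in circSlc17a5 cells and 11.9 ± 0.884 in control cells (SD, n = 3 each). Its log2 fold change of 0.06 (SE 0.115) was not called (edgeR, adjusted p = 0.704), with a value of -0.02 when circSlc17a5 library 2 was left out. NM_001164564.2, whose start in the GENCODE annotation of GRCm38 (26586630) is at the downstream start shown above, took 98.5% of the counts, from 97.4% to 100% of a library. NM_198725.3, with its start at the middle one (26583864), had 3.75, 3.94 and 2.01 counts in circSlc17a5 cells and 5.56 or fewer in each control library. Expected counts divide the reads that transcripts share, so these shares rest on the few reads that separate the starts.

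Plvap, on chromosome 8 from 71497753 to 71511806 on the minus strand, had 224, 273 and 301 counts in circSlc17a5 cells and 284, 407 and 351 in control cells. Normalised levels were 15.3 ± 2.58 CPM in circSlc17a5 cells and 20.6 ± 3.97 CPM in control cells (SD, n = 3 each). Control 1 lay inside the range of the circSlc17a5 libraries and controls 2 and 3 lay above it. A log2 fold change of -0.44 (SE 0.157) did not pass (edgeR, adjusted p = 0.0683). It passed in the edgeR fit with the replicate block (-0.43, adjusted p = 0.00286), in the edgeR fit without control 1 (-0.57, adjusted p = 0.00667) and in the DESeq2 fit (-0.44, adjusted p = 0.0434). In the authors' deposited table its log2 fold change was -0.44 with a q-value of 0.0683. The span of Plvap overlaps Gtpbp3 on the other strand, at a mean of 12.9 TPM, with 476, 468 and 445 counts in circSlc17a5 cells and 405, 352 and 403 in control cells. Whether strand was used in counting is not stated, and the part of such reads in the Plvap counts was not tested.

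Ets1, a founding member of the ETS factors, lies on chromosome 9 from 32636183 to 32757820. It had 807, 708 and 720 counts in circSlc17a5 cells and 672, 555 and 670 in control cells. Normalised levels were 45.1, 40.6 and 42.2 CPM in circSlc17a5 cells and 39.4, 33.6 and 39.5 CPM in control cells, and the lowest circSlc17a5 library stood just above the highest control. Its log2 fold change of 0.19 (SE 0.0903) was not called (edgeR, adjusted p = 0.153). It stayed above 0 and uncalled in each alternative fit. In 5 of the 6 libraries NM_011808.2 took over 90% of Ets1 counts, with 744, 685 and 660 counts in circSlc17a5 cells and 626 and 670 in controls 1 and 3. Control 2 differed, with 137 counts on NM_011808.2 (24.7%), 264 on XM_006510269.2 and 154 on NM_001038642.1. The test of transcripts called none of the 3 (edgeR, adjusted p = 0.737, 0.713 and 0.814).

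Among 18 genes of the ETS family in the table Ets1 ranked 8th by mean TPM, with 7 above it. Etv4 led at 92.2 TPM, 11.4 times the level of Ets1, followed by Elk3 at 32.2 TPM. Etv1, Etv5, Erf, Elf2 and Gabpa at 8.84 to 11.1 TPM and Elf4, Etv6, Elk1, Etv3, Ets2 and Elf1 at 6.50 to 7.87 TPM stood close to Ets1 on either side. Erg, an ETS factor of mature endothelium, had 1 count in all 6 libraries together. Of the 21 tested genes in the list of ETS and MEF2 factors and class IIa deacetylases, 4 rose (Elk1, Elf1, Etv3 and Elf3) and 0 fell, with a median log2 fold change of 0.16. That is 19.0% of the list, near the 22% called over all genes. The count was 8 with the replicate block, where 37.8% of all genes were called. It was 0 to 10 with 1 library left out (10 without control 1), where 462 to 4699 genes were called in all (4699 of 11846 without control 1). Elk1, a factor that carries MAP kinase signals, averaged 8.82 ± 0.993 TPM in circSlc17a5 cells and 4.96 ± 1.59 TPM in control cells (SD, n = 3 each), with a log2 fold change of 0.65 (SE 0.162, edgeR, adjusted p = 0.0232). Elf1, a further ETS factor, averaged 8.40 ± 1.93 TPM in circSlc17a5 cells and 4.61 ± 1.59 TPM in control cells (SD, n = 3 each), with a log2 fold change of 0.68 (SE 0.186, edgeR, adjusted p = 0.0293). Both calls were lost without each of the circSlc17a5 libraries and without control 3, and that of Elf1 also without control 2, with adjusted p up to 0.0934 for Elk1 and up to 0.127 for Elf1 by edgeR.

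Hhex, on chromosome 19 from 37434841 to 37440731, acts in the precursors of endothelium and blood and, outside vessels, in early endoderm and liver. It had 327, 363 and 343 counts in circSlc17a5 cells and 374, 474 and 509 in control cells. Normalised levels were 18.3, 20.8 and 20.1 CPM in circSlc17a5 cells and 21.9, 28.7 and 30.0 CPM in control cells, and all circSlc17a5 libraries lay below all controls. Hhex fell by 0.44 on the log2 scale (SE 0.121, edgeR, adjusted p = 0.0294), which is 1.36-fold lower in circSlc17a5 cells. The call was lost without circSlc17a5 library 1, 2 or 3 (edgeR, adjusted p = 0.122, 0.0716 and 0.0683) and without control 2 or 3 (adjusted p = 0.0809 and 0.114). Without control 1, the control nearest to the circSlc17a5 libraries, the log2 fold change was -0.57 (edgeR, adjusted p = 0.00101). In the authors' deposited table Hhex had a log2 fold change of -0.45 and a q-value of 0.0188, and it was the gene among the 10 with a q-value under 0.05, a line that 15% of the genes in that table passed. Its single listed transcript, NM_008245.3, held all counts and was not called among transcripts (log2 fold change -0.45, edgeR, adjusted p = 0.295).

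Mef2c, on chromosome 13 from 83504017 to 83667661, works in endothelium, muscle, neurons and blood cells. It had 40, 39 and 32 counts in circSlc17a5 cells and 56, 52 and 48 in control cells, so every circSlc17a5 library lay below every control. Normalised levels were 2.12 ± 0.209 CPM in circSlc17a5 cells and 3.09 ± 0.235 CPM in control cells (SD, n = 3 each). The log2 fold change of -0.54 (SE 0.184) did not pass (edgeR, adjusted p = 0.0577), and passed with the replicate block (edgeR, adjusted p = 0.0441). At 0.367 ± 0.0551 TPM in circSlc17a5 cells and 0.463 ± 0.0493 TPM in control cells (SD, n = 3 each) it is a trace transcript in both groups. Its relatives were far higher: Mef2d at 26.6 TPM and Mef2a at 20.1 TPM stood at 64.0 and 48.5 times the level of Mef2c. Neither was called, with log2 fold changes of 0.18 and -0.02 (edgeR, adjusted p = 0.116 and 0.865). Its 24 listed transcripts shared these few counts, the leading one taking 13.4%, and none had counts in all 6 libraries.

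**Figure D3:**
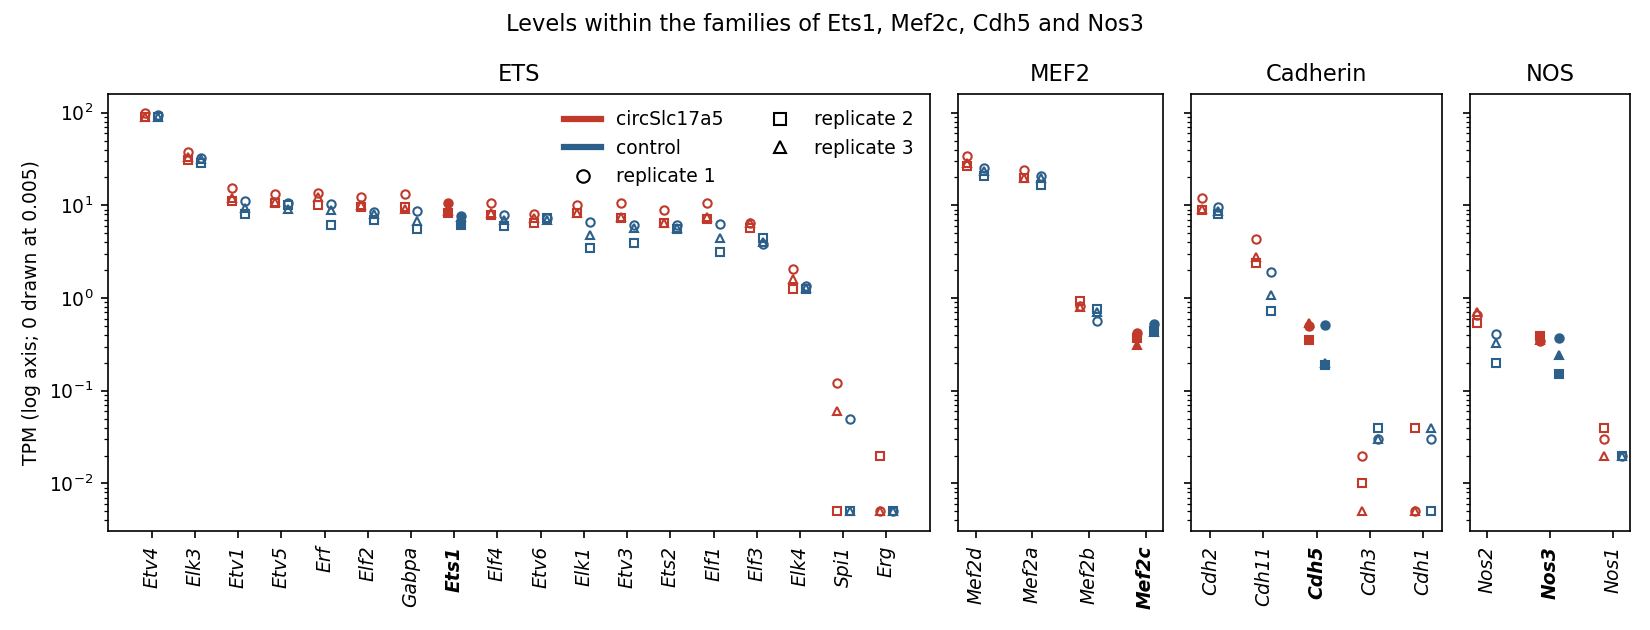
TPM (log axis, values of 0 drawn at 0.005) of ETS factors, MEF2 factors, cadherins and nitric oxide synthases in circSlc17a5 libraries (red, left) and control libraries (blue, right), with filled symbols for Ets1, Mef2c, Cdh5 and Nos3 and circles, squares and triangles for replicates 1, 2 and 3. Ets1 lies in the middle of its family, while Mef2c lies under Mef2d and Mef2a and Cdh5 lies under Cdh2.

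Cdh5, the cadherin of endothelial junctions, lies on chromosome 8 from 104101613 to 104144504. It had 30, 23 and 35 counts in circSlc17a5 cells and 35, 14 and 14 in control cells. Control 1 was level with the highest circSlc17a5 library, and controls 2 and 3 were lower than all of them. The log2 fold change of 0.43 had an SE of 0.359 (edgeR, adjusted p = 0.387). It was 1.00 without control 1 (edgeR, adjusted p = 0.0241), 0.22 without control 2 (adjusted p = 0.725) and 0.21 without control 3 (adjusted p = 0.735). Normalised levels were 1.68 ± 0.365 CPM in circSlc17a5 cells and 1.24 ± 0.703 CPM in control cells (SD, n = 3 each), low in both. N-cadherin (Cdh2), a cadherin that endothelium shares with mural and mesenchymal cells, stood at 9.44 TPM, 24.7 times Cdh5, with a log2 fold change of 0.00 (SE 0.0867, edgeR, adjusted p = 0.979). Cdh11, a cadherin of mesenchymal cells, rose, with 335, 208 and 231 counts in circSlc17a5 cells and 170, 69 and 98 in control cells. Its log2 fold change was 1.15 (SE 0.267, edgeR, adjusted p = 0.0186), a call lost without circSlc17a5 library 1 and without control 3 (adjusted p up to 0.0916).

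Among 13 tested cadherins, catenins and cell contact receptors, 4 rose (Cdh11, Ctnnb1, Ctnnd1 and Vcl) and 0 fell, with a median log2 fold change of 0.02. That is 30.8% of the list, beside 22% over all genes, and 7 were called with the replicate block, beside 37.8% over all genes. The count was 0 to 8 with 1 library left out. It was 0 without circSlc17a5 library 1, beside 462 of 11833 over all genes, and 8 without control 1, beside 4699 of 11846. With the GC and length offset it was 2, beside 2660 of 11722 over all genes, and Ctnnd1 and Vcl were not called (edgeR, adjusted p = 0.321 and 0.0564). Beta-catenin (Ctnnb1), which ties cadherins to actin and carries Wnt signals, had 8768, 7705 and 7185 counts in circSlc17a5 cells and 5968, 4590 and 5648 in control cells. The groups did not overlap, and its log2 fold change was 0.49 (SE 0.0982, edgeR, adjusted p = 0.0107), lost without circSlc17a5 library 1 (adjusted p = 0.0549). Alpha-catenin (Ctnna1), the second most abundant gene of the list at 101.8 TPM, had a log2 fold change of -0.03 (edgeR, adjusted p = 0.817).

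Pecam1, on chromosome 11 from 106654213 to 106715281 on the minus strand, had 10, 5 and 9 counts in circSlc17a5 cells and 11, 8 and 9 in control cells. It was the gene among the 10 that failed the filter, so it has no edgeR fold change. From 24 summed counts in circSlc17a5 cells and 28 in control cells, the ratio per total count was 0.874, with an exact 95% interval of 0.485 to 1.56 that covers counting error only. A difference smaller than these bounds was not detectable at this depth. Apart from Cdh5, with 151 counts, the other defining markers of endothelium were as sparse or sparser: over all 6 libraries the receptors Kdr and Tek had 9 and 6 counts, the junction genes Cldn5 and Esam 1 and 5, Sox18 3, and von Willebrand factor (Vwf) 34. Tie1, a receptor tyrosine kinase, had 11, 10 and 11 counts in circSlc17a5 cells and 3, 5 and 4 in control cells. These groups did not overlap, and Tie1 was under the filter and was not tested.

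Nos3, on chromosome 5 from 24364816 to 24384474, had 21, 27 and 23 counts in circSlc17a5 cells and 26, 11 and 17 in control cells. Normalised levels of 1.36 ± 0.188 CPM in circSlc17a5 cells and 1.06 ± 0.434 CPM in control cells (SD, n = 3 each) overlapped, and the log2 fold change was 0.34 (SE 0.313, edgeR, adjusted p = 0.431). It was 0.69 without control 1 (edgeR, adjusted p = 0.102) and 0.10 without control 2 (adjusted p = 0.856). Atg9b, which overlaps the span of Nos3 on the other strand, had more counts than Nos3 itself in all circSlc17a5 libraries, at 51, 43 and 60, against 17, 20 and 31 in control cells. Reads from sequence that Atg9b and Nos3 share cannot be told apart if counting ignored strand. Only the spans were compared, and the overlap of their exons was not tested. Inducible nitric oxide synthase (Nos2) rose on few counts, with 41, 38 and 46 in circSlc17a5 cells and 29, 14 and 22 in control cells, a log2 fold change of 0.89 (SE 0.263, edgeR, adjusted p = 0.0379). That call was kept without control 1 and lost without any other library (adjusted p up to 0.117).

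Of 16 tested nitric oxide synthases, partners and cofactor genes, 1 rose (Nos2) and 2 fell (Ddah1 and Arg1), with a median log2 fold change of -0.11. That is 18.8% of the list, near the 22% over all genes, and 6 were called with the replicate block, beside 37.8% over all genes. The count was 8 without control 1, where 4699 of 11846 genes were called in all. It was 0 without any other library, where 462 to 1085 genes were called in all. Ddah1, which breaks down methylarginines that inhibit the synthases, had 409, 440 and 435 counts in circSlc17a5 cells and 465, 599 and 546 in control cells, a log2 fold change of -0.38 (SE 0.110, edgeR, adjusted p = 0.0360). Arg1, an arginase that uses the same substrate, averaged 11.1 ± 0.915 TPM in circSlc17a5 cells and 12.5 ± 1.17 TPM in control cells (SD, n = 3 each), a log2 fold change of -0.36 (SE 0.107, edgeR, adjusted p = 0.0382). Both calls were lost on leaving out any library other than control 1 (adjusted p up to 0.138 and 0.136).

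Eng, on chromosome 2 from 32646595 to 32682669, had 37, 55 and 44 counts in circSlc17a5 cells and 48, 63 and 65 in control cells. Its level of 0.817 ± 0.122 TPM in circSlc17a5 cells and 0.963 ± 0.129 TPM in control cells (SD, n = 3 each) sat just under the 1 TPM line. The groups overlapped, and the log2 fold change of -0.42 (SE 0.213) was not called (edgeR, adjusted p = 0.167). With both control 1 and circSlc17a5 library 2 left out it was -0.72 (edgeR, adjusted p = 0.0313). Eng overlaps Fpgs on the other strand, at a mean of 9.18 TPM, and the same doubt on strand holds. Its counts were divided between NM_001146348.1, with 17.4, 29.5 and 31.8 in circSlc17a5 cells and 33.9, 31.7 and 30.5 in control cells, and NM_001146350.1, with 19.6, 25.5 and 12.2 in circSlc17a5 cells and 13.8, 31.3 and 34.4 in control cells. The share of the first ranged from 46.9% to 72.2% of a library and did not separate the groups.

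The other type III receptor, betaglycan (Tgfbr3), stood at 7.70 TPM, 8.65 times Eng, with a log2 fold change of -0.01 (edgeR, adjusted p = 0.965). Acvrl1, the type I receptor that endothelium pairs with endoglin, was at 0.12 TPM and was not tested. The ligands Gdf2 and Bmp10 were not in the table. Of 18 tested genes in the list of receptors, SMADs and related genes, 3 rose and 4 fell, with a median log2 fold change of 0.01. That is 38.9% of the list, beside 22% over all genes. The count was 1 to 10 with 1 library left out. It was 1 without circSlc17a5 library 1, beside 462 of 11833 over all genes, and 10 without control 1, beside 4699 of 11846. With limma-trend on either FPKM scale it was 4, beside 2157 and 2187 of 11722 over all genes. Those that rose were the activin receptor Acvr2a and the signal carriers Smad4 and Smad5, and those that fell were Smad6, Smad9, the target gene Id1 and the protease Mmp14. The call of Smad5 was lost without circSlc17a5 library 1, those of Smad4, Smad6 and Smad9 on leaving out any of 4 libraries, and that of Mmp14 on leaving out any library other than control 1. Acvr2a averaged 2.60 ± 0.274 TPM in circSlc17a5 cells and 1.52 ± 0.140 TPM in control cells (SD, n = 3 each). Its log2 fold change was 0.59 (SE 0.103, edgeR, adjusted p = 0.00703), and the call held with each library left out in turn. Id1, an inhibitor of helix-loop-helix factors, averaged 228 ± 7.73 TPM in circSlc17a5 cells and 247 ± 9.59 TPM in control cells (SD, n = 3 each), a log2 fold change of -0.30 (SE 0.0771, edgeR, adjusted p = 0.0242). That call was kept without control 1 and lost without any other library (adjusted p up to 0.103).

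Caveolae, the membrane pits whose necks Plvap closes in endothelium, were covered by 11 tested coat and neck genes, of which 1 rose (Cavin4) and 3 fell (Cavin1, Cavin3 and Pacsin3), with a median log2 fold change of 0.02. That is 36.4% of the list, beside 22% over all genes. The count was 1 without circSlc17a5 library 1, circSlc17a5 library 3 or control 3, and 2 without circSlc17a5 library 2 or control 2. Over all genes, 462 to 1085 were called in these fits. Without control 1 the count was 5, beside 4699 of 11846 over all genes. The calls of Cavin4 and Pacsin3 were lost on leaving out any library other than control 1. Cavin1, the coat protein that caveolae need, had 2630, 2558 and 2782 counts in circSlc17a5 cells and 3446, 4247 and 3434 in control cells. The groups did not overlap, and Cavin1 fell by 0.53 on the log2 scale (SE 0.101, edgeR, adjusted p = 0.00899), with each library left out as well. Cavin3 averaged 161 ± 4.57 TPM in circSlc17a5 cells and 185 ± 10.7 TPM in control cells (SD, n = 3 each) and fell by 0.40 on the log2 scale (SE 0.0911, edgeR, adjusted p = 0.0171), a call lost without circSlc17a5 library 1 or 3 and without control 3 (adjusted p up to 0.0831). The caveolin Cav1 at 45.3 TPM had a log2 fold change of 0.02 (edgeR, adjusted p = 0.904).

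**Figure D4:**
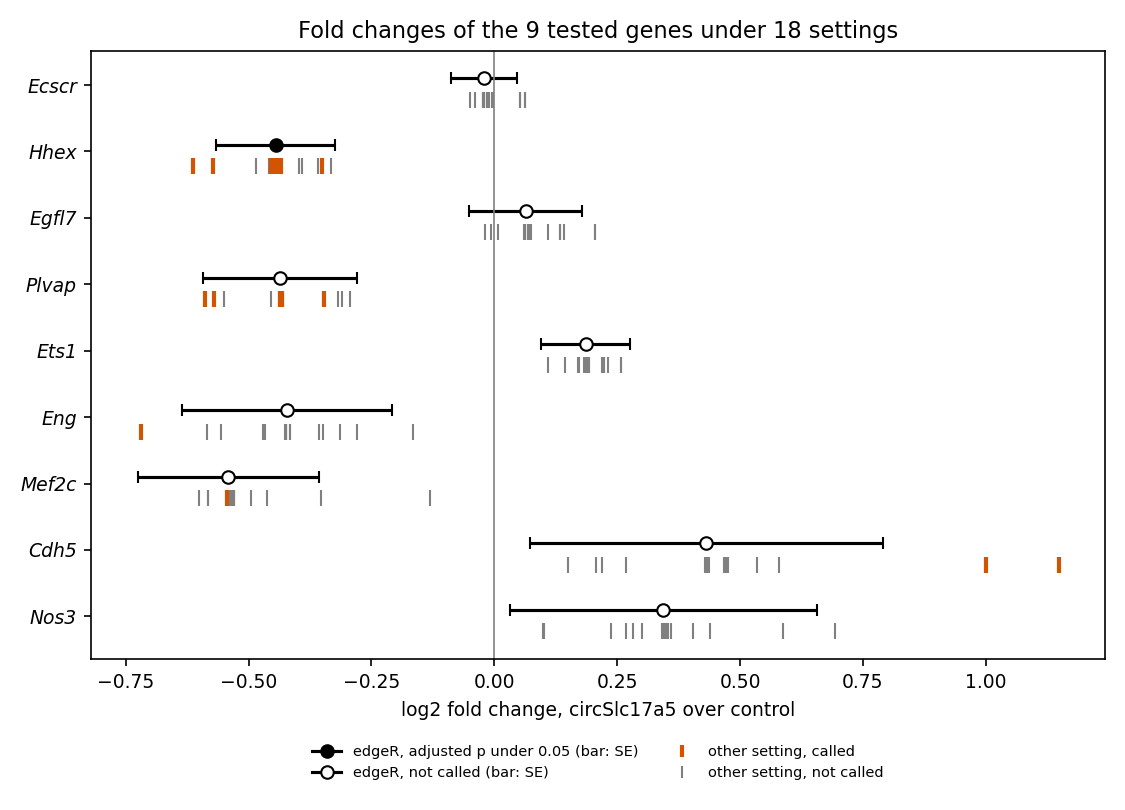
log2 fold change, circSlc17a5 over control, of the 9 tested genes by edgeR (circles with SE, filled where called), with a tick below for each alternative fit (orange where called). Hhex lies at -0.44 and is called, while Cdh5 at 0.43 and Nos3 at 0.34 have the widest error bars and Ecscr at -0.02 the narrowest.

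A wider list of 48 other endothelial genes had 36 in the table. Of these, 9 reached a mean of 1 TPM, 22 stayed under 0.1 TPM, and 2 passed 100 TPM, namely Tm4sf1 at 381 TPM and Procr at 168 TPM. Tm4sf1 is a tetraspanin-like membrane protein and Procr is the endothelial protein C receptor, and both are also made outside endothelium. Like Ecscr, neither was called, with log2 fold changes of -0.20 for Tm4sf1 and -0.05 for Procr (edgeR, adjusted p = 0.0751 and 0.603). Of the 13 tested genes of this list 2 rose (Podxl and Stab1) and 1 fell (Klf2), with a median log2 fold change of 0.20. That is 23.1% of the list, near the 22% over all genes. The count was 6 with the replicate block, beside 37.8% over all genes, and 6 without control 1, beside 4699 of 11846. It was 2 without any other library, beside 462 to 1085 over all genes, and 5 with the GC and length offset, beside 2660 of 11722. Podxl, a sialomucin of the luminal surface, had 907, 717 and 712 counts in circSlc17a5 cells and 514, 509 and 550 in control cells, a log2 fold change of 0.52 (SE 0.0975, edgeR, adjusted p = 0.00899). Klf2, a shear-responsive factor that acts upstream of Nos3, had 157, 168 and 167 counts in circSlc17a5 cells and 223, 261 and 299 in control cells, a log2 fold change of -0.72 (SE 0.127, edgeR, adjusted p = 0.00689). The calls of Podxl and Klf2 held with each library left out, and that of Stab1, a scavenger receptor, held only without control 1 (adjusted p up to 0.123).

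Control 1 stood apart from the other controls for several of the genes, as the plot of CPM by library shows. It and circSlc17a5 library 2 also held more RNA of the fibroblast and smooth muscle genes Col1a2, Acta2 and Tagln than the other libraries. The fits were repeated without these libraries. The genes named come from a list of mural and fibroblast markers with 14 in the table, picked after their values were seen. The other genes of the list are not described by library here, and no cell type is inferred from the genes named. The whole list summed to 17.3 to 33.1 TPM in circSlc17a5 cells and 19.9 to 43.7 TPM in control cells. Of the 8 tested genes of that list, 3 were called risen and 1 fallen between the groups, or 50%, beside 22% over all genes. Col1a2 had 7, 257 and 77 counts in circSlc17a5 cells and 508, 3 and 0 in control cells. Acta2 had 4, 87 and 23 counts in circSlc17a5 cells and 92, 4 and 1 in control cells. Tagln had 7, 147 and 20 counts in circSlc17a5 cells and 139, 2 and 0 in control cells. Leaving out control 1 brought Plvap and Cdh5 past the threshold, in a fit where 4699 of 11846 genes were called in all. Leaving out circSlc17a5 library 2 did not (edgeR, adjusted p = 0.139 and 0.35). A link between these marker genes and the calls was not tested. With both control 1 and circSlc17a5 library 2 left out, the log2 fold change was -0.59 for Plvap, 1.15 for Cdh5 and -0.61 for Hhex (edgeR, adjusted p = 0.0131, 0.0189 and 0.00236). For Plvap, Hhex, Eng, Cdh5 and Nos3 the normalised level of control 1 was nearer to the circSlc17a5 mean than to the mean of controls 2 and 3. That is 5 of the 9 tested genes (55.6%) against 52.1% of all tested genes. Cdh5 averaged 1.68 CPM in circSlc17a5 cells, against 2.05 CPM in control 1 and a mean of 0.835 CPM in controls 2 and 3. Hhex averaged 19.7 CPM in circSlc17a5 cells, against 21.9 CPM in control 1 and a mean of 29.3 CPM in controls 2 and 3.

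At the level of transcripts, 28266 were tested and edgeR called 2 of them, or 0.00708%. Of the 44 transcripts of the 10 genes, 10 had counts in all 6 libraries and 13 were tested, and 0 were called by edgeR, with 1, that of Hhex, at an unadjusted p under 0.05 in the edgeR fit. DESeq2 called 3418 transcripts in all, or 12.2%, and 0 of these 13. The division of counts between transcripts moved between libraries of the same group in Ets1, Nos3 and Pecam1. All Nos3 counts went to XM_006535639.4 in circSlc17a5 libraries 1 and 3 and in controls 1 and 2, and to NM_008713.4 in circSlc17a5 library 2 and control 3. All Pecam1 counts of circSlc17a5 library 1 went to NM_001305158.1, and in the other 5 libraries to NM_001032378.2. Plvap kept 93.0% to 100% of its counts on NM_032398.2.

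**Figure D5:**
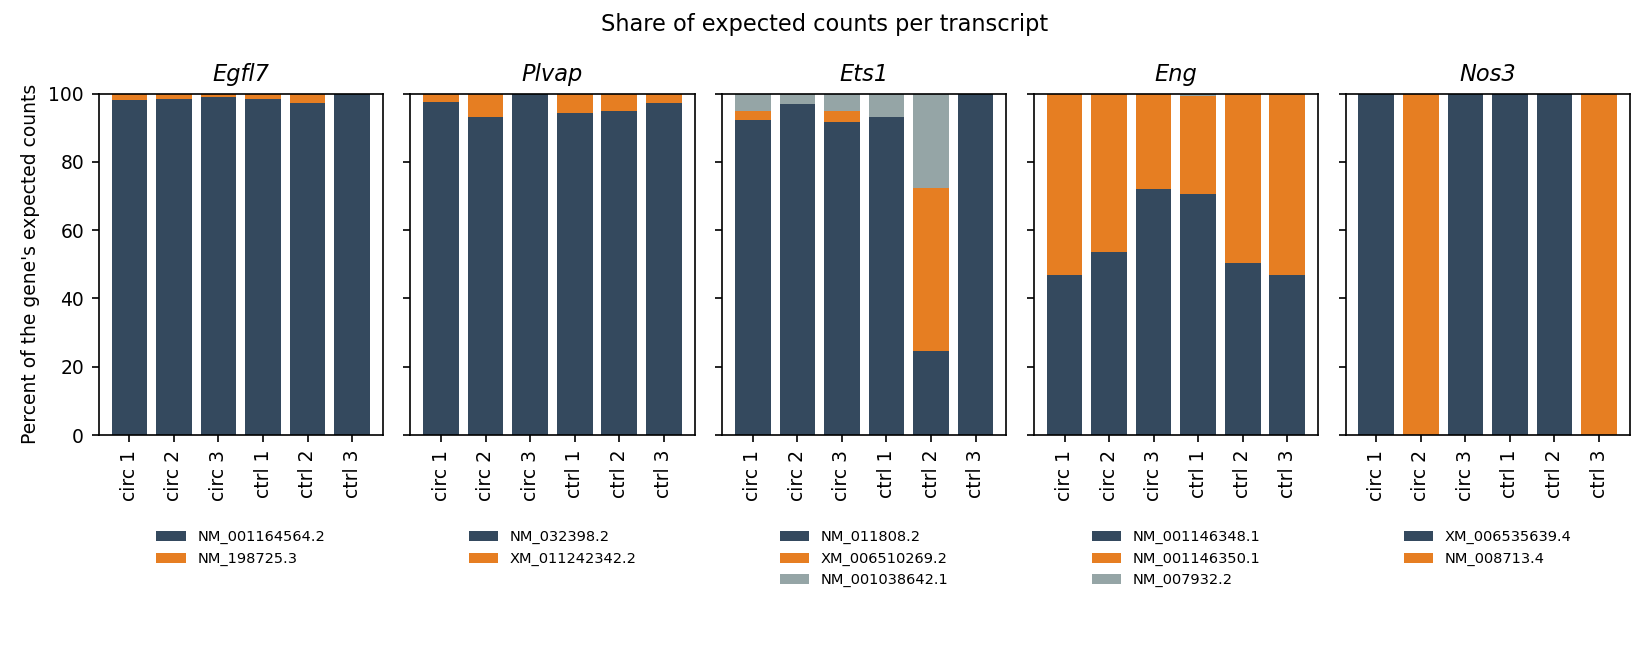
Percent of a gene's expected counts assigned to each listed transcript of Egfl7, Plvap, Ets1, Eng and Nos3, by library, with the circSlc17a5 libraries left of the controls. Egfl7 and Plvap rest on 1 transcript throughout, Ets1 departs in control 2, and Nos3 switches as a whole between libraries of the same group.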

How the data were processed

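Gene and transcript RNA levels were measured in 3 circSlc17a5 and 3 control libraries; groups and replicate numbers come from the sample titles. Per the labels' protocols, TRIzol was used for total RNA and a SMARTer mRNA-Seq kit for the libraries. Expected counts, FPKM and TPM were deposited by the authors for each gene and transcript, and a further table deposited by the authors holds log2 fold changes, p-values and q-values from DESeq2, per the file headers. HISAT2 2.0.4, Bowtie2 2.2.5 and RSEM 1.2.12 are named in the submitters' processing notes, without roles. No source used here names the genome build. Positions are those of the files, and for 8 of the 10 genes they lay within 1 base of RefSeq GRCm38.p6. Ets1 and Mef2c differ from RefSeq at an end. Per library, 9.05% to 10.8% of gene values had a fractional part. The gene table held 15399 entries, of which 1 had no annotation and was left out, as was 1 of 49380 transcripts.

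Expected counts were rounded, filtered with filterByExpr, and scaled by TMM. The two-sided quasi-likelihood F test of edgeR 4.0.16 (in R 4.3.3) was run over the whole table, without further terms, and genes were called at a Benjamini-Hochberg adjusted p under 0.05. Fold changes are circSlc17a5 over control. An SE is the size of the log2 fold change over the root of F. Normalised CPM values are counts scaled to TMM library sizes. Alternatives were DESeq2 1.42.0, limma 3.58.1 (voom, and limma-trend on log2(FPKM + 1) and log2(FPKM + 0.1)), RLE and upper quartile scaling, no filter, a replicate block, and libraries left out; an offset for GC content and length was added after the data were seen. The scripts were tested on simulated data.

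Replicate numbers were used to pair the libraries only in the fits with the replicate block, and the main fit left them out. Deviations from the group means correlated at 0.354, 0.146 and 0.105 for numbers 1, 2 and 3. The labels do not say what a number marks, and circSlc17a5 library 3 correlated more with control 2 (0.394). The 10 genes and all gene lists were chosen with earlier results of these data known. A rule for naming list genes was not followed in full. It took the called genes with the smallest adjusted p and a mean of 50 or more counts in one group (1 risen and 1 fallen where both exist). It also took the 2 genes with the highest level, the defining endothelial markers, and relatives of the 10 genes. Several genes that met the rule are not named above, among them Notch3, Des, Nefl, Cdx2, Hdac5 and Id3. Other list genes that are named were chosen after their values were seen. Sequences are from RefSeq tables of GRCm38.p6; coordinates are 1-based.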

Additional observations from a re-analysis of the deposited data

How the results depend on the processing

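Ets1 and Nos3 kept their direction and stayed uncalled under every alternative, and transcripts of the 10 genes stayed uncalled in all fits of transcripts. The log2 fold change of Ecscr was 0.0619 with log2(FPKM + 1), 0.0623 with log2(FPKM + 0.1), 0.052 with the GC and length offset and 0.0525 with that offset and the replicate block. That of Egfl7 lay between -0.018 (without circSlc17a5 library 2) and 0.1338 with 1 library left out, and was -0.007 with both control 1 and circSlc17a5 library 2 left out. Hhex was not called with log2(FPKM + 1) (limma, adjusted p = 0.0521). Over all genes, the number called was 4429 with the replicate block, 3993 with the GC and length offset and the block, and 462 to 4699 with 1 library left out, the most without control 1. Among the 10 genes, the number called was 2 by DESeq2 (2636 of 11722 over all genes, 22.5%) and 0 with log2(FPKM + 1) (2157 of 11722 over all genes). It was 3 with the replicate block (37.8% over all genes). With both control 1 and circSlc17a5 library 2 left out it was 4, where 3680 of 11772 genes were called in all. It was 2 with the GC and length offset and the block (3993 of 11722 over all genes), and 0 to 3 with 1 library left out (462 to 4699 over all genes). Over all transcripts, the number called was 3418 by DESeq2, 1 by limma-voom, 1 with upper quartile scaling, 1 without a filter, 0 with the replicate block, 0 with both libraries left out, and 0 to 32 with 1 library left out. The cause was not tested. Apart from Plvap, Mef2c and the counts given beside the lists, the block changed no other call among the 10 genes. Depth limits Eng, Cdh5, Nos3, Pecam1 and Mef2c, each under 1 TPM.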
